A study of Mus musculus with 16 samples.

Results

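Small nuclear, nucleolar, Cajal body and miscellaneous small RNA loci and miRNA loci of the mouse were followed across polyA RNA and Ago2-IP RNA of cells labelled JG. The loci were chosen by their annotated biotype (snRNA, snoRNA, scaRNA, misc_RNA or miRNA), by lying outside the mitochondrial genome, and by a total of at least 50 counts over the 16 libraries. The rule kept 105 loci of 5432 of these biotypes and of 46078 genes in all. They were 18 of 1387 snRNA, 58 of 1510 snoRNA, 11 of 41 scaRNA, 15 of 565 misc_RNA and 3 of 1929 miRNA loci. A further 962 loci had 1 to 49 counts and 4365 had none. Just inside the minimum were Gm27316 with 50 counts and Snord15a and Gm25360 with 51, and just outside were Gm23547, Gm25640 and Gm27864 with 48 counts each. The 105 loci held 157431 counts, 0.2228% of all counts. Because the total counts chose the loci, their overall level is a description and was not tested.

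By their labels the libraries come from JG cells, which the study describes as engineered juxtaglomerular cells with YFP under the renin promoter. The marker genes measured in these libraries put this label in doubt. The cells were transfected with a miR-106b precursor or a control precursor and collected at 48 h. For each transfection, 4 libraries were made of polyA RNA, selected with oligo(dT), and 4 of RNA recovered from immunoprecipitated Ago2 (Ago2-IP), the protein that carries miRNAs in RISC. The study's methods call the 4 libraries of each group biological replicates, and the p-values measure the spread between them.

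Most of these RNAs carry no polyA tail. Between Ago2-IP and polyA RNA, loss of an RNA in the selection with oligo(dT) and its recovery with Ago2 cannot be told apart. A rise or fall between these kinds of RNA means only a higher or lower level in Ago2-IP RNA. The spliceosomal snRNAs U1, U2, U4 and U5 act with U6 at the major class of introns, and U11, U12, U4atac and U6atac act at the minor class. Most of them are bound by a ring of Sm proteins. H/ACA snoRNAs guide the conversion of uridine to pseudouridine in ribosomal RNA and end a few bases after the letters ACA. C/D snoRNAs guide methylation of the ribose and carry a C box near the start and a D box near the end. The scaRNAs guide the same changes on snRNAs in Cajal bodies. In mammals most snoRNAs are released from introns of a host gene. Among the misc_RNA loci, 7SK holds the elongation factor P-TEFb inactive, 7SL is the RNA of the signal recognition particle, Y RNAs bind Ro60, and the vault RNA is a part of the vault particle. Mature miRNAs are loaded into Ago2 and pair with target mRNA through a seed, the bases from 2 to 8.

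The transfected miRNA, miR-93-5p from the same cluster, whose locus had no counts, and the miRNA members Mir8112 and Mir1943 are shown first, as RefSeq gives their mature forms on GRCm38.p6, with the seed in capitals. Gm25262 is the other miRNA member. The locus of miR-106b-5p lies at chr5:138165787-138165807 on the minus strand.
mmu-miR-106b-5p: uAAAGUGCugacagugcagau
mmu-miR-93-5p: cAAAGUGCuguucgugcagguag
mmu-miR-8112: uCUCCGCCaccuccaccgca
mmu-miR-1943-5p: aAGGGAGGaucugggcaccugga
mmu-miR-1943-3p: cAGGUGCCagcuccucccuuc
The first 2 share the seed AAAGUGC, which 6 other mature miRNAs of the table share with miR-106b-5p (miR-93-5p among them). No other mature miRNA of the table shares the seed of miR-8112 or miR-1943-3p, and 3 share that of miR-1943-5p.

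The snRNA loci with the most counts and the minor class U12 are shown next, as the annotation (GENCODE M21, GRCm38) gives them, because the first and the second differed from U12 in their pattern over the libraries. Capitals mark the run of T with its flanks at which Sm proteins bind.
Gm22513 (chr12:54696782-54696945, plus strand): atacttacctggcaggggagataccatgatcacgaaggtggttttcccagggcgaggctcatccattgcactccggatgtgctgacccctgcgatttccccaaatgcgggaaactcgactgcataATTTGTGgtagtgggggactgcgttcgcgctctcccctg
Gm24265 (chr5:115489459-115489599, plus strand): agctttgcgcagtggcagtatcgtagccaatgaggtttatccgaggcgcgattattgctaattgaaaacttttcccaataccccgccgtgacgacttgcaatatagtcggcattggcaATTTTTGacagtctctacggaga
Rnu12 (chr15:83149644-83149794, plus strand): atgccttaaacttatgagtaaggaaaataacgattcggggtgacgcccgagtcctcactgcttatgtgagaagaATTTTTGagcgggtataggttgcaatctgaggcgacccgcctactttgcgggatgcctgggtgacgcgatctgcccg
Gm22513 was 99.4% identical to the annotated U1 RNA it resembles most. Gm24265 and Gm24407, numbered loci recognised here as U4 by their sequence, differ at 2 of 141 positions, G88A and C99A, counted from 1 at the 5′ end. Short reads from such copies can be split or lost by the counting, so that values of single copies are uncertain. ATTTGTG or ATTTTTG, searched on the RNA strand only, was in 11 of the 18 snRNA members and in 16.1% of all snRNA loci with a sequence. The start of U1 that pairs with the 5′ splice site, ACTTACCTG, was in 6 of the 18 and in 3.98% of all.

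The H/ACA snoRNAs Snora57, Snora78 and Snora47 and the C/D snoRNAs Snord49a and Snord49b are shown because the first 3 were far higher in some Ago2-IP libraries and Snord49b fell in polyA RNA. Capitals mark ACA, or the C box and the D box CTGA.
Snora57 (chr19:8888538-8888685, minus strand): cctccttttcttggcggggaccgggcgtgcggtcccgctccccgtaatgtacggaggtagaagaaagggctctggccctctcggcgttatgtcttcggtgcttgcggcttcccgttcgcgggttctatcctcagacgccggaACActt
Snora78 (chr17:24719676-24719803, minus strand): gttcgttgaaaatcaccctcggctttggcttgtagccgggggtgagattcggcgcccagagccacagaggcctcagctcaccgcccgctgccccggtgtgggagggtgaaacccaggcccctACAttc
Snora47 (chr13:95330600-95330737, plus strand): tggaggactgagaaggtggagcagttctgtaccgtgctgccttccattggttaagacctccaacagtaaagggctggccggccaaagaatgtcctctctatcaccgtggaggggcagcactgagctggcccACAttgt
Snord49a (chr11:62603450-62603521, plus strand): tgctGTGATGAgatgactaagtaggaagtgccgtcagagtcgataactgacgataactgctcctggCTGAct
Snord49b (chr11:62603079-62603150, plus strand): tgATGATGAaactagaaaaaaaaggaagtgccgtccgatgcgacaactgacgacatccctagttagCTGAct
ACA near the end was found in 42 of the 58 snoRNA members and CTGA near the end in 15. Over all snoRNA loci with a sequence the shares were 42.8% and 29.8%. Gm22362 had neither. Among the 11 scaRNA members 5 had ACA and 5 had CTGA. The letters TGATGA were in 13 of the 58 snoRNA members and in 25.9% of all snoRNA loci.

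Between 2579086 and 9459585 counts were recorded per library. Markers of other cell types differed between the RNA kinds. The summed level of 25 cardiac muscle genes, 23 of which passed the filter, was 22673 to 32287 CPM (the count of a gene scaled to the total count of its library) in polyA control, 44238 to 76673 in polyA miR-106b, 102527 to 109620 in Ago2-IP control and 99682 to 109554 in Ago2-IP miR-106b libraries. The 8 endothelial genes gave 276 to 415, 524 to 982, 1280 to 1336 and 1198 to 1318 CPM in the same order, and the 8 blood and leukocyte genes 130 to 188, 278 to 450, 616 to 642 and 583 to 664 CPM. The 8 smooth muscle and mural genes gave 2443 to 2668, 3448 to 4349, 5044 to 5341 and 4803 to 5349 CPM. Of 5 juxtaglomerular markers 3 passed, with a sum of 8.64 to 15.5, 15.4 to 24.7, 31.0 to 45.7 and 36.6 to 38.3 CPM, and the defining marker Ren1 had 0 counts in all 16 libraries. These values go against the label of the cells. Of 10 kidney epithelial genes 3 passed, and their list summed to 305 to 475 and 203 to 456 CPM in the polyA groups but 3.14 to 21.7 and 5.23 to 32.5 CPM in the Ago2-IP groups. Here a smaller share of cells, less RNA per cell and a difference in what each kind of RNA recovers cannot be told apart.

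The small RNA loci took up a variable share of the Ago2-IP libraries. Their summed level was 786 ± 46 CPM (SD, n = 4) with the control precursor and 657 ± 276 CPM with miR-106b in polyA RNA. In Ago2-IP control libraries 1 to 4 it was 411, 424, 3055 and 8756 CPM, and in Ago2-IP miR-106b libraries 1 to 4 it was 6072, 11122, 3996 and 1435 CPM. Ago2-IP control libraries 1 and 2 thus lay below every polyA control library, and libraries 3 and 4 above every one. All 4 Ago2-IP miR-106b libraries lay above the 4 polyA miR-106b libraries, whose sums ran from 422 to 1056 CPM.

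**Figure D1:**
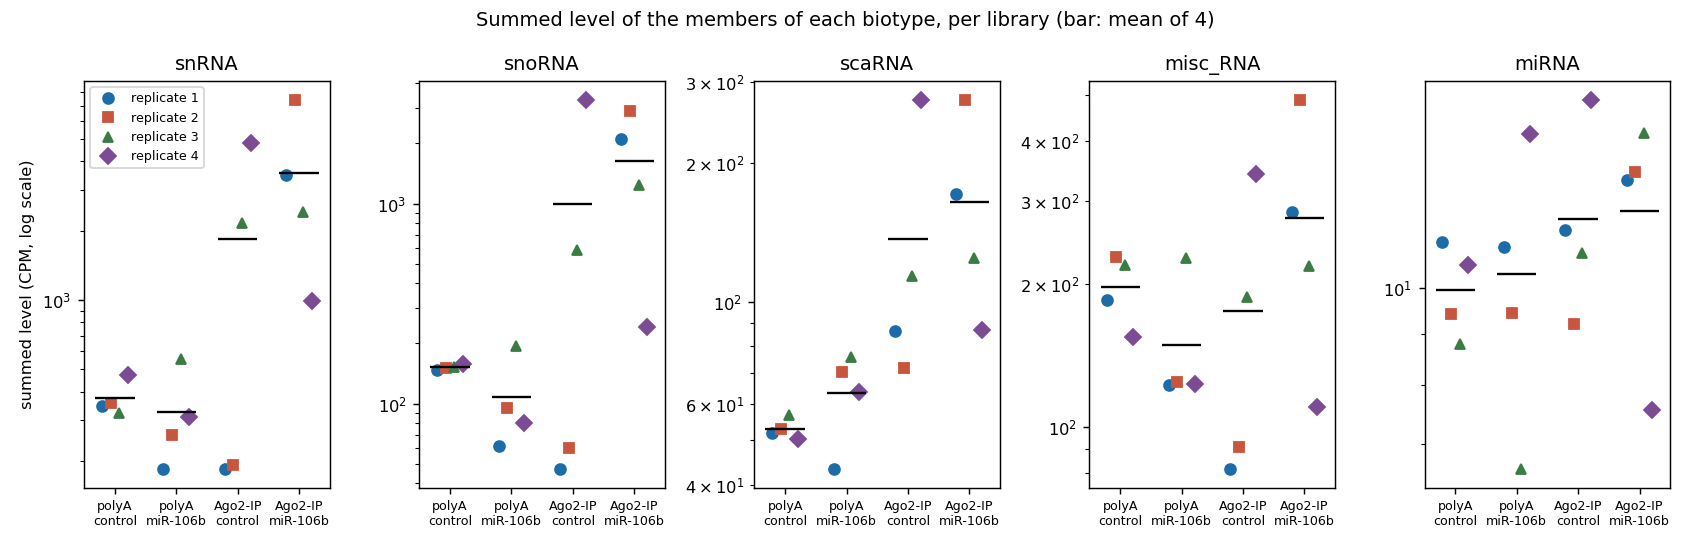
Summed level of the members of each biotype in CPM (log axis, a scale of its own for each panel) for the 4 groups, with 1 point per library and a bar at the mean of 4. The snRNA sums of the Ago2-IP control libraries run from 184 to 4818 CPM, while the miRNA sums stay between 6.60 and 15.4 CPM in all 16 libraries.

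By biotype, the snRNA members summed to 374 ± 66 CPM (SD, n = 4) in polyA control and to 184, 192, 2156 and 4818 CPM in Ago2-IP control libraries 1 to 4. The snoRNA members were even in polyA control, with 152 ± 4.7 CPM, and spread most in Ago2-IP control, with 47.1, 60.05, 587 and 3305 CPM. Their highest library was 70.2 times the lowest there, against 1.08 times in polyA control. The scaRNA members summed to 86.2, 71.8, 114 and 275 CPM in Ago2-IP control against 52.9 ± 2.8 CPM in polyA control. Much of this was Scarna2, and without it the sums were 24.3, 12.3, 55.4 and 194 CPM against 23.9 ± 2.4 CPM, so that the highest library was 15.8 times the lowest in place of 3.84 times. The misc_RNA members gave 81.4, 90.8, 188 and 341 CPM against 197 ± 34 CPM. Most of the polyA sum was Rn7sk, and without it the order of the means turned, with 42.0, 48.6, 116 and 234 CPM in Ago2-IP control (mean 110) against 46.2 ± 5.2 CPM in polyA control. The 3 miRNA members gave 11.7 ± 2.6 CPM against 9.96 ± 1.1 CPM, and their groups overlapped. With the counts of protein-coding genes as the denominator no biotype mean moved by as much as the SD of its group. Those genes hold nearly all counts, so that this denominator could move the sums only a little.

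The spread among Ago2-IP libraries was wider for most of these loci than for most genes. The highest library was set over the lowest within each group, with a library under 3 counts set to 3, among genes that averaged 2 CPM or more. In Ago2-IP control libraries 67 of 76 members reached a ratio of 5, where 1.85% of all genes did, and the median ratio was 18.8 against 1.33. In Ago2-IP miR-106b libraries 65 of 86 members did, against 2.08%, with medians of 8.30 and 1.37. In polyA miR-106b libraries it was 5 of 38 members against 3.07%, and in polyA control libraries 0 of 43 against 0.0555%. A high library helps a member reach the 2 CPM, so the members were also chosen in 2 other ways after the data were seen. Of those that averaged 2 CPM in the other 3 libraries, without their highest, 35 of 44 reached a ratio of 5 in Ago2-IP control, where 1.18% of all genes did, and 60 of 76 in Ago2-IP miR-106b, where 1.74% did. Of the 43 that averaged 2 CPM in polyA control, 31 did so among Ago2-IP control libraries, where 1.39% of all genes did, and 28 among those with miR-106b, where 1.49% did. Within Ago2-IP control the highest library was library 4 for 74 of the 76 members and the lowest was 1 for 43 and 2 for 30. Within Ago2-IP miR-106b the highest was library 2 for 70 of the 86 and the lowest was 4 for 80.

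**Figure D2:**
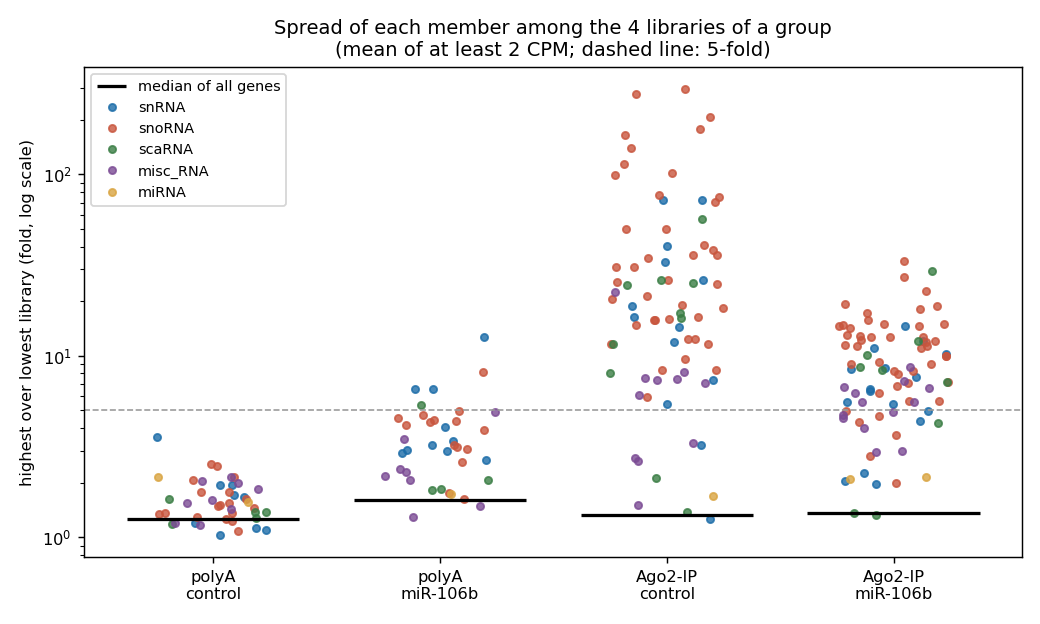
Ratio of the highest to the lowest library within each group (log axis) for members with a mean of at least 2 CPM, colored by biotype, with a black bar at the median of all genes and a dashed line at 5-fold. The members of both Ago2-IP groups lie mostly above the dashed line, up to 302-fold, while the bars of all genes lie between 1.26 and 1.60.

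Other transcripts that are no members moved with them. Rpph1, the RNA of RNase P, was at 62.8, 70.1, 1709 and 2646 CPM in Ago2-IP control libraries 1 to 4 and at 1913, 4762, 1560 and 809 CPM in Ago2-IP miR-106b libraries 1 to 4. Rmrp, the RNA of RNase MRP, ran from 17.9 CPM in Ago2-IP control library 2 to 813 CPM in Ago2-IP miR-106b library 2. The kidney epithelial list was also highest in Ago2-IP control library 4, at 21.7 CPM, and in Ago2-IP miR-106b library 2, at 32.5 CPM, and lowest in Ago2-IP control library 1, at 3.14 CPM. The sum of the cardiac genes was lowest in those same libraries, at 102527 and 99682 CPM, but near the level of the others. What these have to do with the level of the small RNA loci was not tested.

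Among the snRNAs, the U1 copy Gm22513 held the most counts of any member, 58862. In polyA RNA its level was 149, 148, 150 and 167 CPM after the control and 83.2, 117, 222 and 143 CPM after the miR-106b precursor. In Ago2-IP control libraries it was 79.7, 86.6, 1430 and 3231 CPM, and in Ago2-IP miR-106b libraries 2244, 5436, 1636 and 637 CPM. The Ago2-IP miR-106b libraries did not overlap the polyA miR-106b libraries, whereas Ago2-IP control libraries lay on both sides of polyA control. Per length it was the highest member named here in each group, at 937 CPM per kb in polyA control and 15174 CPM per kb in Ago2-IP miR-106b. Ago2-IP exceeded polyA RNA by 4.30 ± 0.74 (log2 fold change ± SE) with miR-106b (edgeR adjusted p = 0.0050) and by 3.26 ± 1.28 with control, where the adjusted p of edgeR was 0.056.

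The U4 copy Gm24265 was at 96.5, 105, 82.0 and 160 CPM in polyA control and at 40.5, 38.5, 321 and 725 CPM in Ago2-IP control libraries. With miR-106b it was at 46.5, 63.8, 158 and 76.0 CPM in polyA and at 559, 852, 329 and 156 CPM in Ago2-IP libraries, so that the lowest Ago2-IP library fell just under the highest polyA library. The second copy Gm24407 was likewise low in Ago2-IP control libraries 1 and 2 and high in 3 and 4, with 38.8, 41.1, 269 and 561 CPM. The further U1 copies Gm25682 and Gm22739 and the locus Gm23240, which begins like U1 and ends differently, reached 62.0, 61.5 and 43.8 CPM in Ago2-IP control library 4, from 0.571, 0.286 and 1.71 CPM in library 1. U5 (Gm25099) was at 1.43, 1.68, 7.84 and 17.1 CPM in Ago2-IP control against 1.23 to 2.42 CPM in polyA control.

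Of the minor spliceosome snRNAs among the members, the highest Ago2-IP control library was 1.27 times the lowest for U12, 3.22 times for U6atac and 7.40 times for U4atac. U12 (Rnu12) was at 6.03, 6.24, 5.76 and 6.32 CPM in polyA control and at 7.42, 7.82, 6.49 and 8.23 CPM in Ago2-IP control libraries, which did not overlap, and it rose by 0.59 ± 0.20 (log2, edgeR adjusted p = 0.011). With miR-106b its groups overlapped, at 3.73, 7.35, 11.2 and 6.04 CPM against 13.6, 14.5, 7.77 and 6.40 CPM. U6atac (Gm25541) was at 7.14 to 11.9 CPM in polyA control and 4.57 to 14.7 CPM in Ago2-IP control, with a difference of 0.21 on the log2 scale (edgeR adjusted p = 0.55). U4atac (Gm22710) was at 4.28, 3.07, 7.84 and 22.7 CPM in Ago2-IP control and with miR-106b its Ago2-IP level exceeded polyA RNA by 1.64 ± 0.52 (log2, edgeR adjusted p = 0.029). Its libraries overlapped there, at 5.23 to 26.1 CPM against 1.98 to 8.04 CPM, and the call was lost without polyA miR-106b library 1, 2 or 4 or Ago2-IP miR-106b library 1 or 2. Both atac names come from the RNA sequence, since the table names these loci by number.

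**Figure D3:**
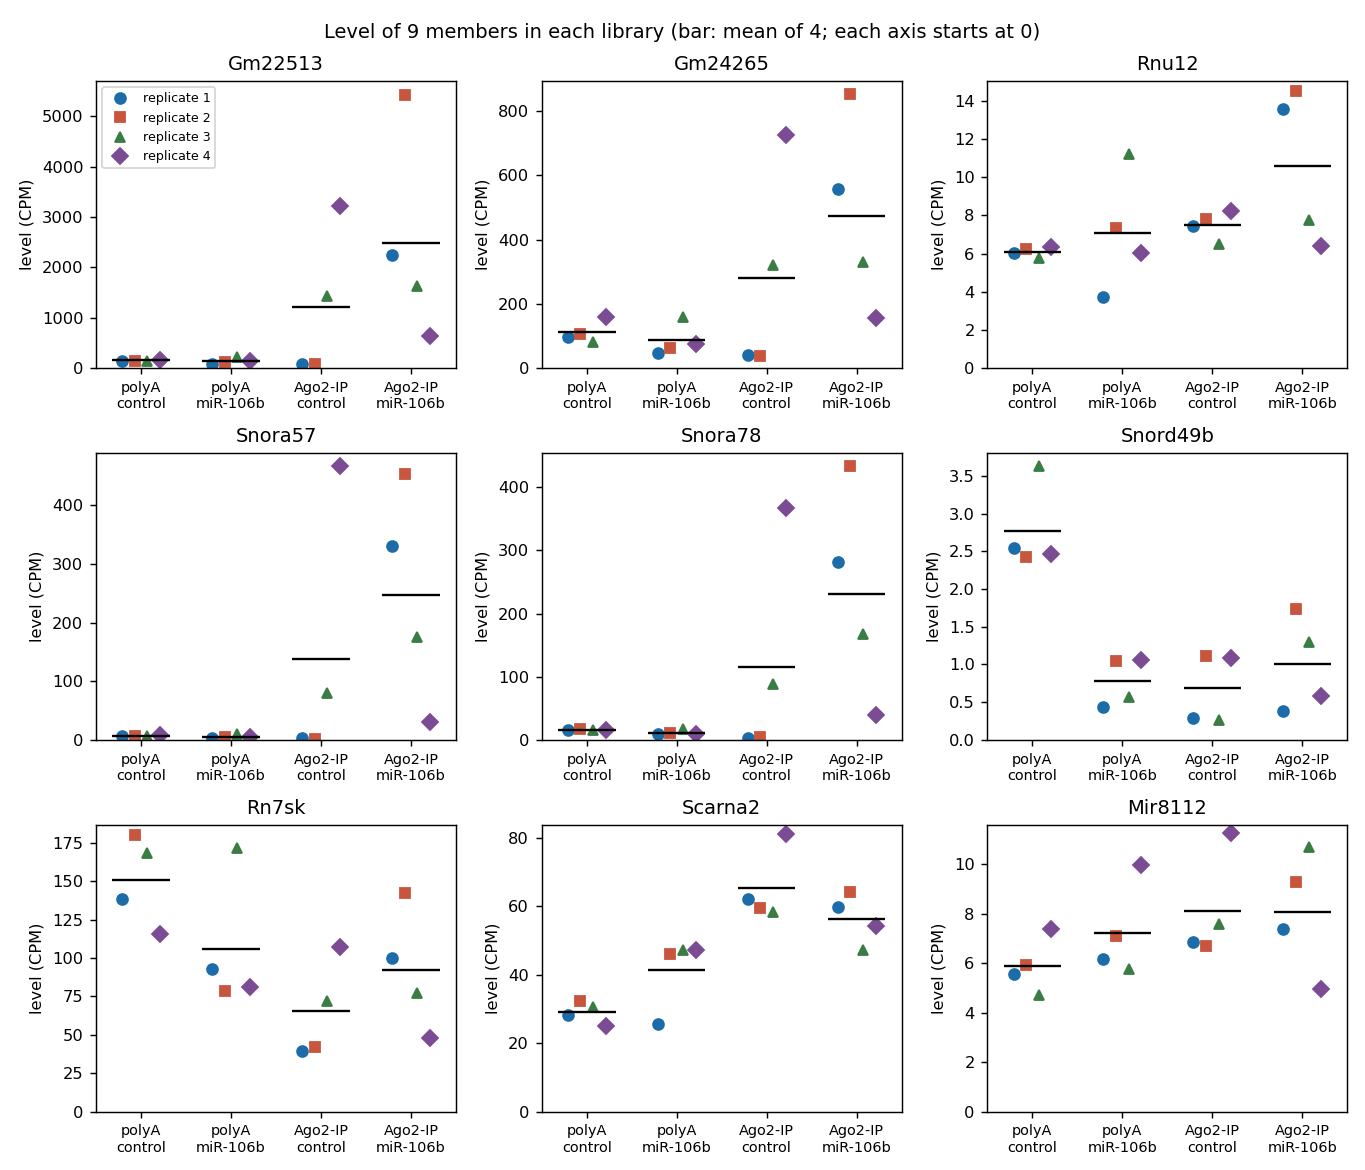
Level in CPM (axis from 0, a scale of its own for each panel) of 9 members in the 16 libraries, with 1 point per library, shaped by replicate number, and a bar at the mean of 4. Gm22513, Gm24265, Snora57 and Snora78 are low in Ago2-IP control libraries 1 and 2 and high in 3 and 4, while Rnu12, Scarna2 and Mir8112 vary by at most 2.27 times within either Ago2-IP group.

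H/ACA snoRNAs were the members with the largest differences. Snora57 was at 6.19, 6.45, 5.91 and 7.90 CPM in polyA control and at 2.86, 1.68, 80.1 and 467 CPM in Ago2-IP control libraries. With miR-106b it was at 3.07, 4.46, 9.48 and 4.26 CPM against 330, 454, 176 and 30.8 CPM, with no overlap. It rose by 4.71 ± 1.65 (log2) in the control and by 5.70 ± 0.98 in the miR-106b transfection (edgeR adjusted p = 0.039 and 0.0051). The call in the control transfection was lost when any 1 of the polyA control libraries, or Ago2-IP control library 3 or 4, was left out, and that with miR-106b was kept in all 8 fits without 1 library. Snora47, in an intron of Zbed3, was near 1 CPM in polyA control (0.529 to 1.93) and at 0.286, 2.23, 8.93 and 98.3 CPM in Ago2-IP control, and was called higher in both transfections. It passed the filter through Ago2-IP groups alone, and in the control transfection it was not called with no filter (edgeR adjusted p = 0.075) or when any 1 of the polyA control libraries was left out.

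Snora78, within Snhg9, was at 16.2, 17.1, 16.1 and 15.8 CPM in polyA control and at 3.71, 5.03, 88.2 and 368 CPM in Ago2-IP control libraries, on both sides of polyA control, and was not called there. With miR-106b, Ago2-IP libraries were at 281, 433, 168 and 39.3 CPM, all above the 9.44 to 16.7 CPM of polyA. Snora7a in Rpl32, Gm26397 in an intron of Tomm20 and Gm25788 in an intron of Pabpc4 reached 185, 253 and 185 CPM in Ago2-IP control library 4 from 3.14, 0.286 and 3.71 CPM in library 1. Gm23442 in Prrc2a and Snora21 in Rpl23 rose by 4.8 ± 1.71 and 5.33 ± 1.87 (log2) in the control transfection (edgeR adjusted p = 0.042 and 0.039). Snora21 passed the filter through Ago2-IP miR-106b libraries alone, and with no filter neither was called (4.72 and 5.25, edgeR adjusted p = 0.085 and 0.080). Neither was called when any 1 of the 4 polyA control libraries was left out, nor was Gm23442 without Ago2-IP control library 3 or 4. Gm24313, Gm23297 and Gm24613 had at most 1.68 CPM in polyA or in the 2 lowest Ago2-IP control libraries and 17.5, 21.9 and 9.75 CPM in Ago2-IP control library 4.

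The C/D snoRNAs gave lower medians, and the difference between the classes was not tested. Snord22, which overlaps an annotated exon of Snhg1, was at 16.7, 14.4, 13.6 and 16.7 CPM in polyA control and at 3.71, 7.54, 71.4 and 151 CPM in Ago2-IP control libraries. Its Ago2-IP level exceeded polyA by 3.13 ± 0.75 (log2) with miR-106b (edgeR adjusted p = 0.018), where it was at 108, 164, 85.8 and 18.3 CPM. Snord13, which acts in processing of ribosomal RNA, rose by 1.89 ± 0.55 there (edgeR adjusted p = 0.020). The call of Snord22 was lost without polyA miR-106b library 1 or 2, and that of Snord13 without 1, 2 or 4. Snord118, the U8 RNA, had 57 counts in all and did not pass the filter. Over the tested members the median log2 difference in the miR-106b transfection was 4.61 for the 35 with ACA, all called higher, and 2.6 for the 13 with CTGA, of which 11 were called higher, where 18.6% of all genes were. In the control transfection these medians were 3.61, with 10 called higher, and 1.96, with 4 called higher and 1 lower, where 35.4% of all genes were called higher and 37.9% lower. For all genes tested the medians were -0.04 and -0.06. Many of these members passed the filter on low counts through Ago2-IP groups alone, most of them through Ago2-IP miR-106b, which favours a higher level there. For the 9 with ACA and the 5 with CTGA that passed in all 4 groups, the medians were 4.46 and 2.62 with miR-106b, all called higher, and 3.61 and 1.96 with control, where 4 and 0 were called higher. The CTGA members are also shorter, and for the 7 of them with at least 100 bases the medians were 2.6 and 1.96. Fragments were size-selected, and the part of length in the difference was not tested.

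Snord49a and Snord49b both lie in introns of 2410006H16Rik, and Snord49b was the only snoRNA member called lower in Ago2-IP control than in polyA control. Snord49b was at 2.54, 2.43, 3.64 and 2.46 CPM in polyA control and at 0.286, 1.12, 0.270 and 1.08 CPM in Ago2-IP control libraries. These groups did not overlap, and it fell by 1.64 on the log2 scale (SE 0.47, edgeR adjusted p = 0.0035). Snord49b passed the filter through polyA control alone, which favours a fall from that group. With no filter on low counts the difference was -1.73 (edgeR adjusted p = 0.0019). That fit does not undo the choice of members by total counts. Of the 112 counts of Snord49b, 16, 23, 24 and 14 were in the polyA control libraries. Without them it would have missed the minimum total, so that this choice also favours a fall. Snord49a was at 3.97, 2.85, 2.42 and 2.63 CPM against 2.0, 0.838, 1.35 and 2.82 CPM and was not called. With miR-106b, Snord49b was not called lower, and with no filter its difference was 0.51 (log2, edgeR adjusted p = 0.69).

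The scaRNA Scarna2, which carries guide regions for the U2 snRNA, was among the more even members in the Ago2-IP groups. It was at 28.2, 32.2, 30.5 and 25.1 CPM in polyA control and at 62.0, 59.5, 58.4 and 81.0 CPM in Ago2-IP control libraries, with no overlap. It rose by 1.45 ± 0.11 (log2, edgeR adjusted p = 3.6e-11). With miR-106b it was at 25.5, 45.9, 47.1 and 47.2 CPM in polyA and 59.7, 64.1, 47.3 and 54.1 CPM in Ago2-IP libraries, just without overlap, a difference of 0.60 ± 0.18 that was not called without Ago2-IP miR-106b library 2. Gm23119 was higher in Ago2-IP RNA by 0.85 ± 0.21 in the control transfection and by 1.06 ± 0.26 with miR-106b (log2, edgeR adjusted p = 8.1e-04 and 0.0046). In control its libraries overlapped, since Ago2-IP library 2 was at 6.70 CPM and the polyA libraries were at 6.82 to 8.08 CPM. Scarna13, within Snhg10, followed the snoRNAs, at 0.857, 1.95, 10.3 and 48.7 CPM in Ago2-IP control libraries. Scarna6, Scarna8, Gm25492 and Gm23751 did too, from at most 0.857 CPM in libraries 1 and 2 to 14.5, 21.0, 21.9 and 13.9 CPM in library 4, whereas Gm22009 went from 6.0 and 2.79 to 32.3 CPM. Gm22442, in an intron of Chd3, was at 0.571, 0, 7.84 and 21.0 CPM. Scarna17 had 67 counts and did not pass the filter.

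Among the misc_RNA loci, 7SK (Rn7sk) was lower in Ago2-IP control, at 39.4, 42.2, 72.2 and 107 CPM, than in polyA control, at 139, 180, 169 and 116 CPM. These groups did not overlap, yet the difference of -0.90 ± 0.35 (log2) had an edgeR adjusted p of 0.054. With miR-106b the 7SK levels overlapped, at 92.9, 78.5, 171 and 81.0 CPM against 100, 142, 77.0 and 48.3 CPM. The vault RNA Vaultrc5 was higher in Ago2-IP than in polyA RNA in both transfections. With control it was at 22.3, 18.2, 59.2 and 147 CPM against 11.6, 10.8, 12.6 and 10.7 CPM (2.76 ± 0.75, log2, edgeR adjusted p = 0.015). With miR-106b the difference was 3.06 ± 0.63. Rny1 rose by 0.74 ± 0.24 and 1.07 ± 0.39 (log2, edgeR adjusted p = 0.0078 and 0.043). The call of Rny1 with control was lost without Ago2-IP control library 2, and that with miR-106b without polyA miR-106b library 1, 2 or 4 or Ago2-IP miR-106b library 1 or 2. Rny3 rose with miR-106b, by 1.67 ± 0.52 (edgeR adjusted p = 0.026), where its Ago2-IP libraries were at 27.1, 16.2, 5.83 and 5.53 CPM and overlapped the polyA libraries at 2.63 to 6.30 CPM. This call was lost without polyA miR-106b library 1, 3 or 4 or Ago2-IP miR-106b library 2. With control the difference of Rny3 was 0.03 ± 0.25 (edgeR adjusted p = 0.91). The 7SL copy Gm23153 and the 7SK copy Gm23973 rose with miR-106b by 2.21 ± 0.45 and 2.70 ± 0.54 (log2). Gm22906 fell by 1.62 on the log2 scale in the control transfection (edgeR adjusted p = 0.020), from 1.37 to 2.42 CPM down to at most 0.857 CPM. Of these groups it passed the filter through polyA control alone, which favours a fall, and the call was lost without polyA control library 3 or Ago2-IP control library 3 or 4.

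The miRNA loci held few counts. The libraries were made from size-selected fragments for mRNA and not for mature miRNAs. The Mir106b locus had 1 count in all 16 libraries, in Ago2-IP control library 4, and Mir93 and Mir25 of the same cluster had 0. A count of 0 in a library allows up to 3 counts, or from 0.317 to 1.16 CPM depending on the depth of the library, and covers counting error only. No difference between groups at the locus of the transfected miRNA was detectable from 1 count, and the size selection limits what these libraries could hold of mature miRNA. Mir8112 lies on the opposite strand of Smyd1, a muscle gene, and overlaps an exon of another annotated gene, and the libraries keep no strand. It was at 5.55, 5.92, 4.70 and 7.38 CPM in polyA control and 6.85, 6.70, 7.57 and 11.3 CPM in Ago2-IP control libraries, which overlapped, and was called higher by 0.77 ± 0.22 (log2, edgeR adjusted p = 0.0036). Mir1943, within Tmem184b, had 91 counts, with 0.635 to 0.878 CPM in polyA control against 0.838 to 2.43 CPM, and was also called higher (1.37 ± 0.48, edgeR adjusted p = 0.013). It passed the filter through Ago2-IP groups alone and was not called with no filter (1.29, edgeR adjusted p = 0.053) or without Ago2-IP control library 3. Gm25262 had 171 counts and was called in no comparison.

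Other miRNA loci were nearly without counts. The 8 muscle miRNA loci had 35 counts, 19 of them on Mir208b. The 3 endothelial and smooth muscle loci had 2, and the 25 loci of let-7 and other widely expressed miRNAs had 49, of which 15 were on Mirlet7b. The miR-17 family loci had 61 counts, 60 of them on the host transcript Mir17hg. The 84 miRNA and snoRNA loci between Meg3 and Mirg had 16 counts, and the 4 snoRNA loci of the Prader-Willi domain had 0. Of the 10 snRNA loci named as spliceosomal or U7, only Rnu12 was a member and 8 had 0 counts. Of 10 named processing RNAs 4 were members, of 14 snoRNA loci of ribosomal RNA cleavage 3, and of 10 named Cajal body loci 5. Terc, the RNA of telomerase, had 43 counts.

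Of the 105 members 92 passed the filter of at least 1 CPM in 3 of 4 libraries of any group, with 14897 genes in all. Of these 92, 35 passed in all 4 groups and 41 passed through Ago2-IP groups alone, which favours a higher Ago2-IP level in the group they passed through. For 34 of the 41 that was the Ago2-IP miR-106b group alone. In the control transfection 32 members were called higher in Ago2-IP than in polyA RNA, where 35.4% of all genes were, and 2 lower, where 37.9% were. By biotype, 7 of 16 snRNA, 14 of 49 snoRNA, 5 of 10 scaRNA, 4 of 14 misc_RNA and 2 of 3 miRNA members were called higher. The median log2 difference of the members was 2.63, against -0.06 for all genes, and 0.78 against -0.08 without Ago2-IP control library 4. In the miR-106b transfection 79 members were called higher, where 18.6% of all genes were, and 0 lower, where 19.8% were. The unadjusted p of edgeR was under 0.05 for 81 of the 92 members and for 7050 of the 14897 genes. The members called higher are given next by biotype. These were 13 of 16 snRNA, 47 of 49 snoRNA, 10 of 10 scaRNA, 9 of 14 misc_RNA and 0 of 3 miRNA members, with a median of 3.58 against -0.04. Of the 35 members that passed in all 4 groups, 13 were called higher with control and 30 with miR-106b. These transfections were compared directly by the change of the ratio.

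The number called in the control transfection varied with the libraries in the fit. Leaving out Ago2-IP control library 1 or 2 gave 58 or 62 called members in place of 34, of which 56 and 60 were higher, where 34.6% and 35% of all genes were. Leaving out both, an alternative chosen after the data were seen, gave 86, of which 84 were higher, where 33.3% of all genes were. Leaving out library 3 or 4 gave 23 or 22, of which 22 and 20 were higher, where 34.2% and 34.4% of all genes were, and leaving out any polyA control library gave 16 or 17, of which 14 or 15 were higher, where 33.4% to 34.7% were. Of the groups of libraries themselves, 3 members did not overlap with Ago2-IP control higher (Vaultrc5, Rnu12 and Scarna2), where 26.1% of all genes did, and 3 with it lower (Snord49b, Rn7sk and Gm22906), where 44.5% did. With miR-106b it was 50 members higher, where 13.9% of all genes were, and 0 lower, where 25.7% were. Of the 50, 28 had passed the filter through Ago2-IP groups alone, and 16 were among the 35 members that passed in all 4 groups.

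**Figure D4:**
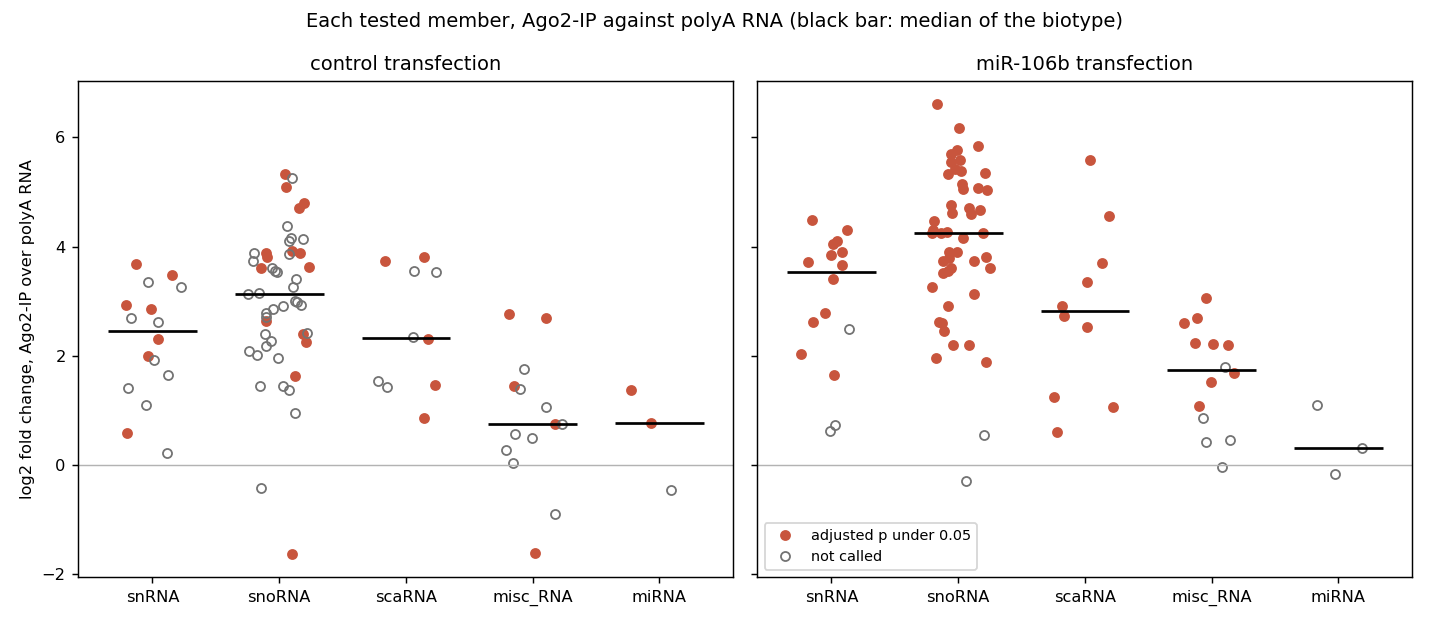
Log2 fold change of Ago2-IP over polyA RNA for each of the 92 tested members by biotype, in the control (left) and miR-106b transfection (right), with filled points for an edgeR adjusted p under 0.05 and a bar at the median of the biotype. The bars of snoRNAs lie at 3.14 and 4.25, and those of misc_RNA at 0.75 and 1.73, and more points are filled on the right.

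The host genes gave other values than their small RNAs. Of the tested members 53 lie within a tested host gene on the same strand, and these hosts are 47 genes. The median log2 difference of Ago2-IP over polyA RNA was 2.98 for these members and -0.76 for the hosts in the control transfection, and 3.89 and -0.44 in the miR-106b transfection. All 53 members were above their host in both, though many had passed the filter through Ago2-IP groups alone. The 12 that passed in all 4 groups were also above their hosts in both, with medians of 2.48 against -1.10 for their 11 hosts with control and 3.75 against -0.72 with miR-106b. Of the 47 hosts, 6 were called higher and 31 lower with control, where 35.4% and 37.9% of all genes were, and 4 and 20 with miR-106b, where 18.6% and 19.8% were. Snora78 was 3.15 above polyA in Ago2-IP control, which was not called (edgeR adjusted p = 0.069), while Snhg9 was at -1.57, and Snora21, which passed through Ago2-IP miR-106b alone, was 5.33 above while Rpl23 was at -1.50. Of the 58 snoRNA members 40 lie in an intron, 11 overlap an exon of the host, 5 lie between genes and 2 lie on the opposite strand of a gene.

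In polyA RNA, miR-106b against control, few of the members were called. Only Scarna2 rose (0.52 ± 0.18, log2, edgeR adjusted p = 0.035), where 19% of all genes did, and 5 fell, where 21.5% did. Scarna2 was not called without polyA control library 4 (0.46, edgeR adjusted p = 0.088) or without polyA miR-106b library 2, 3 or 4 (0.46, 0.48 and 0.44, edgeR adjusted p = 0.093, 0.075 and 0.10). Snord49b fell by 1.81 on the log2 scale (SE 0.41, edgeR adjusted p = 0.0041), from 2.54, 2.43, 3.64 and 2.46 CPM to 0.439, 1.05, 0.574 and 1.07 CPM, with no overlap. It passed the filter through polyA control alone, and with no filter the fall was -1.79 (edgeR adjusted p = 0.0044). Without its polyA control counts Snord49b would also have missed the minimum total of the members. The filter and the minimum total both favour a fall from polyA control, and the fit with no filter removes only the filter. Snord55 fell by 1.02 (SE 0.27, edgeR adjusted p = 0.0094), from 10, 12.6, 13.6 and 13.5 CPM to 4.17, 4.72, 10.9 and 4.62 CPM, with 1 library inside the control range. Snord104 and Gm22442 fell by 1.36 and 0.96 on the log2 scale without overlap of the libraries (edgeR adjusted p = 0.024 and 0.020). Snord104 was not called without polyA control library 1, 3 or 4 or polyA miR-106b library 1, and Gm22442 was not called without polyA control library 1 or 3. Snora78 fell by 0.48 (edgeR adjusted p = 0.048), with 1 miR-106b library at 16.7 CPM, inside the range of control, and it was called in only 1 of the 8 fits that left out 1 library, the fit without polyA miR-106b library 3. The 5 that fell thus hold 3 C/D and 1 H/ACA snoRNA and 1 scaRNA with ACA, and no snRNA, misc_RNA or miRNA member was called.

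The median log2 change of the 92 members was -0.36, against -0.05 for all genes, and 25 of them were above 0. The members' median was -0.04 without polyA miR-106b library 1, -0.23 without library 2 and -0.81 without library 3. Libraries not overlapping between groups were found for 0 members higher, where 16.5% of all genes had them, and for 4 lower (Snord49b, Gm23297, Snord104 and Gm22442), where 22% had them. Of these, Gm23297 had at most 0.635 CPM in the control libraries, below the 0.659 to 1.07 CPM that 3 counts make in the shallower miR-106b libraries, so that its lack of overlap is not read as a fall. PolyA miR-106b library 3 was the highest for 31 of the 38 members with a mean of at least 2 CPM, and without it 20 members (21.7%) were called lower, where 22.1% of all genes were, and 0 higher, where 20.2% were. Without polyA control library 1 or 3 the count of called members was 3, of which 1 was higher, where 18.4% and 17.3% of all genes were, and 2 lower, where 12.3% and 11.5% were. The summed cardiac level was higher in each polyA miR-106b library than in each control library, and its part in these values was not tested. The host genes of the members had a median of -0.44, against -0.05 for all genes, with 2 of 47 called higher and 26 lower, where 19% and 21.5% of all genes were.

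In Ago2-IP RNA, miR-106b against control, edgeR called 0 members in either direction, where 0% of all genes were called higher and 0% lower. With unadjusted p under 0.05 there was 1 member and 826 genes, and DESeq2 called 0 members. The members' median was 0.56 on the log2 scale against 0.00 for all genes, with all 16 tested snRNA members above 0. This median rested on few libraries: it was 2.15 without Ago2-IP control library 4, 0.27 to 0.28 without Ago2-IP control library 2 or 1, 0.09 without Ago2-IP miR-106b library 2, 0.91 without Ago2-IP miR-106b library 4, and -0.23 without Ago2-IP control libraries 1 and 2 together. Libraries did not overlap for 0 members in either direction, where 1.58% of all genes were separated higher and 1.66% lower. For Gm22513 the difference was 1.04 ± 1.34, and for Snora57 0.81 ± 1.47, so that a change of several-fold was not detectable at this spread. Leaving out Ago2-IP control library 4 gave 1 called member, where 0.0537% of all genes were called. It was Gm22362, singled out after its values were seen, which was called higher with miR-106b and had passed the filter through Ago2-IP miR-106b alone, so that the filter favours the call.

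The change of the Ago2:polyA ratio with miR-106b compares the 2 transfections directly. Of the members, 1 was called higher, where 7.61% of all genes were, and 1 lower, where 19.7% were. The ratio of Scarna2 fell by 0.88 on the log2 scale (SE 0.22, edgeR adjusted p = 0.0043). The ratio of Snord49b rose by 2.18 ± 0.79 (edgeR adjusted p = 0.043), but this member passed the filter through polyA control alone, which favours such a rise, and with no filter it was not called (2.32, edgeR adjusted p = 0.079). Both rest on the values given above, in which the polyA level was called changed, for Scarna2 not in every fit that left out 1 library. The Ago2-IP level was not called different, but that comparison called 0 of 14897 genes. The change therefore cannot be placed in polyA RNA alone. For Gm22513 the change was 1.01 ± 1.38 and for Snora57 0.99 ± 2.12. The median over members was 0.85 against -0.07 for all genes. It was 2.31 without Ago2-IP control library 4, 0.34 without Ago2-IP miR-106b library 2, 0.49 and 0.54 without Ago2-IP control library 1 or 2 and 0.07 without both. It was 1.28 without polyA miR-106b library 3. Leaving out Ago2-IP control library 4 gave 12 called members, of which 11 were higher, where 7.17% of all genes were, and 1 lower, where 18.9% were. Leaving out Ago2-IP miR-106b library 4 gave 4, of which 3 were higher, where 6.87% were, and 1 lower, where 19% were. Snord49b was not called in 9 of the 16 fits that left out 1 library.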

How the data were processed

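PolyA and Ago2-IP RNA of 16 libraries was sequenced as non-strand-specific, single-end short reads. By the methods of the study, reads of ribosomal RNA were taken out, the others were placed on GRCm38 with Tophat2, and HTSeq gave the counts per gene that the authors deposited. The submitters' processing notes name TopHat2 version 2.0.10, and the methods another version. How reads that map to several copies were counted is not given in the sources used here. The deposited values are whole-number counts per gene, with no normalization.

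Counts were analysed with edgeR 4.0.16 in R 4.3.3, and tables and figures were made with Python 3.11.15. TMM scaling and the two-sided quasi-likelihood test (robust dispersion, prior count 0.125) were used, and p-values were adjusted by Benjamini-Hochberg over the 14897 genes with at least 1 CPM in 3 of 4 libraries of any group, with a threshold of 0.05. The pairwise comparisons used the libraries of their groups and the ratio an interaction over all 16. Printed CPM are scaled to library size alone. The scripts were tested on simulated data. Depth was 2579086 to 9459585 counts, and intervals and floors of 3 counts cover counting error only. Libraries of a group differed beyond sampling noise in each of 24 pairs, by at least 1.69 in chi-square per degree of freedom.

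Starts were moved by 1 base and then matched GENCODE M21 for all 105 members. U1, U2, U5, U12, 7SK and 7SL copies were named at an identity of at least 70% to a named RNA, and U4, U4atac and U6atac from knowledge of their sequences. Genes named were the Mir106b cluster, the 6 members with the most counts in each biotype, the 5 largest called rises and falls of each comparison at a mean of at least 2 CPM, up to 3 called against their biotype, and members of lists by role. Any others were chosen after their values were seen. The members and lists were chosen with earlier results of these data known. Alternatives were DESeq2 1.42.0, other scalings, filters and minimum totals, a likelihood ratio test, a replicate block, 1 fit over all libraries and leaving out each library. Some sequences and a host gene are not reported here.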

Additional observations from a re-analysis of the deposited data

Results flagged for a closer look

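In groups of 4 libraries, 1 library lay far from the other 3 in 21 of the 142 groups examined (14.8%), in 19 members (critical ratio of the gap to the range 0.829), where chance gives about 1 in 20 and the same ratio marked 5.09% over all genes tested. The named members with at least 20 counts in the group were examined, and they include the largest called rises in Ago2-IP RNA, a choice that favours members with 1 high library. In Ago2-IP control, 13 of 39 named members were marked (33.3%), each for a high library 4. Over all tested members, many of which passed the filter through Ago2-IP groups alone, it was 38 of 87 (43.7%), again each for library 4, where 5.66% of all genes were marked in that group and 1.13% for a high library 4. There Snora57 reached 467 CPM, Gm23442 255, Gm26397 253, Snora7a 185, Gm25788 185, Snora47 98.3 and Snora21 63.0 CPM. The lower members there were Gm22009 at 32.3, Gm25492 at 21.9, Gm23297 at 21.9, Scarna8 at 21.0 and Gm24313 at 17.5 CPM. Scarna2 was at 81.0 CPM there, with the other libraries between 58.4 and 62.0 CPM. The same library was high for many members, so that these are not separate events.

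In polyA miR-106b library 3, Rn7sk was high at 171 CPM, Snora78 at 16.7 and Snord55 at 10.9 CPM, and Scarna2 was low in library 1 at 25.5 CPM. In polyA control libraries, Gm22513 was high at 167 CPM in library 4, Gm23442 at 5.24 CPM in library 1 and Snord49b at 3.64 CPM in library 3. Gm22442 was high at 32.2 CPM in Ago2-IP miR-106b library 2.

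The ratio of Ago2-IP to polyA RNA differed between the transfections by the test of the difference itself for Snord49b, at 2.18 on the log2 scale (a member that passed the filter through polyA control alone and was not called with no filter), and for Scarna2, at -0.88.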

How the results depend on the processing

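The count of called members depended on the fit. In brackets stand the members called higher and lower, each with the share of all genes called that way. In polyA RNA it was 6 (1, 19%, and 5, 21.5%), and 3 with at least 10 counts in every library (1, 23.1%, and 2, 27.7%), 3 by DESeq2 (1, 21.6%, and 2, 18%), 19 by a likelihood ratio test (1, 22.1%, and 18, 27.1%), 2 with all 16 libraries in 1 fit (1, 25.7%, and 1, 16.2%), and 3 to 20 when 1 library was left out. In Ago2-IP RNA it was 0, and 2 by the likelihood ratio test (2, 0.101%, and 0, 0.0201%), and 0 to 1 with 1 library left out. The 2 were Gm26493 and Snord104, of which Gm26493 had passed the filter through Ago2-IP miR-106b alone, which favours its call as higher there. For Ago2-IP against polyA in the control transfection it was 34 (32, 35.4%, and 2, 37.9%), and 9 with at least 10 counts in every library (20 members tested; 8, 38.7%, and 1, 41.7%), 66 with all 16 libraries (65, 35.1%, and 1, 34.6%), 86 without Ago2-IP control libraries 1 and 2 (84, 33.3%, and 2, 35%), and 16 to 62 with 1 library left out. With miR-106b it was 79 (79, 18.6%, and 0, 19.8%), and 16 with at least 10 counts in every library (20 tested; 16, 24.7%, and 0, 25.2%). With 1 library left out it was 58 (58, 16.1%, and 0, 17.6%) to 82 (82, 15.3%, and 0, 16.2%). For the ratio it was 2 (1, 7.61%, and 1, 19.7%), and 32 by the likelihood ratio test (31, 12.1%, and 1, 22.5%), and 1 without Ago2-IP control libraries 1 and 2 (0, 4.37%, and 1, 15.4%). With 1 library left out it was 1 (0, 5.38% to 10.3%, and 1, 17% to 22%) to 12 (11, 7.17%, and 1, 18.9%). The filter on every library tests fewer members. For the others the cause was not tested.

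Correlations of deviations over 24 pairs of libraries with the same replicate number ran from -0.421 to 0.261. The labels do not say what a number marks. Libraries of unlike number were not compared, so these values cannot decide whether numbers pair the libraries. With the replicate block, the counts were 4, 0, 40, 70 and 1 in the order above, of which 1, 0, 38, 70 and 0 were higher, where 17.3%, 0%, 34.5%, 17.5% and 7.46% of all genes were. Called lower were 3, 0, 2, 0 and 1 members, where 19.7%, 0.00671%, 37%, 18.3% and 18.7% of all genes were. Of 1024 refits of 60 calls of named members, 859 kept the call, 165 lost it and 0 reversed. Low counts, shared sequence among copies and unstranded reads limit single loci.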

Other observations

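Gm10800, a transcript that is no member, ranged from 225 CPM in Ago2-IP control library 2 to 11168 CPM in library 4, and reached 15036 CPM in Ago2-IP miR-106b library 2. Malat1, a nuclear long noncoding RNA, was at 1530, 1516, 1745 and 3462 CPM in Ago2-IP control libraries 1 to 4 and at 3356, 3373, 2098 and 1589 CPM in Ago2-IP miR-106b libraries 1 to 4. Neat1, another nuclear RNA, was at 1166 to 1222 CPM in Ago2-IP control libraries.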
